A study of Homo sapiens with 8 samples.

Results

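The miR-34 family was examined in small RNA-seq data of 4 untreated human tumor-derived cell lines. The family was taken by name from the table of mature miRNAs, that is hsa-miR-34a-5p, hsa-miR-34a-3p, hsa-miR-34b-5p, hsa-miR-34b-3p, hsa-miR-34c-5p and hsa-miR-34c-3p (the human prefix is left out below). All 6 names were found, each with 1 entry, among 2588 mature miRNA names. ES-2 cells are derived from an ovarian cancer, MV-3 cells from a melanoma, Huh-7 cells from a hepatocellular carcinoma and A-549 cells from a lung adenocarcinoma. The cells were parental and untreated, were grown in DMEM with serum and were harvested 48 h after seeding, so that the lines differ in origin and share the culture conditions. There were 2 libraries per line and 8 in all. The study describes the 2 small RNA libraries of a line as biological replicates. The labels do not say how separate their cultures were, and p-values measure only the spread between these libraries. With 1 line per tumor type, differences between lines cannot be told apart from differences between the tumor types they stand for.

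The miR-34 family is known as a direct transcriptional target of the tumor suppressor p53. Its strands lower the synthesis of cell cycle and survival factors such as CDK4, CDK6, MET and BCL2. A miRNA hairpin is cut into a duplex of a 5p and a 3p strand, of which usually 1 strand is kept by Argonaute and guides it to mRNAs through the seed, bases 2 to 8. miR-34a is described as the widely expressed member, whereas miR-34b and miR-34c are made from a common primary transcript and are described as abundant in ciliated epithelium, brain and testis. A-549 cells are widely described as p53 wild-type, and ES-2 and Huh-7 cells as p53 mutant. The labels give no p53 status, and p53 itself was not measured in these data.

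The mature sequences of 5 of the 6 members were matched in RefSeq annotation of GRCh38.p14, and miR-34c-5p is given by name. They are shown because miR-34a-5p and miR-34b-5p share a heptamer, as do miR-34b-3p and miR-34c-3p, at positions that differ by 1 base, with the seed in capitals and 5′ to 3′:
miR-34a-5p: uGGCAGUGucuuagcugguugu
miR-34b-5p: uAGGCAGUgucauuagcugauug
miR-34a-3p: cAAUCAGCaaguauacugcccu
miR-34b-3p: cAAUCACUaacuccacugccau
miR-34c-3p: aAUCACUAaccacacggccagg

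The strand of miR-34b-5p starts 1 base earlier, so the heptamer GGCAGUG lies at position 2 of miR-34a-5p and at position 3 of miR-34b-5p. Their seeds by number are therefore GGCAGUG and AGGCAGU. The seed of miR-34c-5p, whose sequence was not matched, was not compared, so these seeds do not stand for the main strands of the loci. Among the 3p strands, miR-34b-3p and miR-34c-3p share a run of 10 bases, AAUCACUAAC, which starts at position 2 of the former and at position 1 of the latter. The longest run shared by miR-34a-5p and miR-34b-5p was 9 bases, of 22 and 23. Each of the 5 sequences had 1 exact match in the GRCh38 chromosomes, at its own hairpin. These strands are 22 to 23 bases long, and reads are compared without a length term.

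The hairpins lie at 2 loci. MIR34A lies on chromosome 1 at 9151668 to 9151777 of GRCh38, minus strand, in an exon of its host transcript MIR34AHG, a long non-coding RNA. MIR34B lies on chromosome 11 at 111512938 to 111513021 and MIR34C at 111513439 to 111513515, both on the plus strand and separated by 417 bases. Both overlap an exon of the long non-coding RNA MIR34BHG and, on the opposite strand, an intron of BTG4.

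Libraries held 1173902 to 2670030 reads on mature miRNAs. The deposited values, called normalised CPM here, are CPM (read counts scaled to a common library total) divided by a composition factor of each library, the trimmed mean of M values (TMM). This factor ran from 0.593 in A-549 replicate 2 to 1.70 in Huh-7 replicate 2, so the main comparisons of the family are also given as library CPM, which leaves it out. A level of 3 reads, taken as the detection floor, lay between 0.845 and 2.45 normalised CPM. Of the markers examined for cell origin, the hepatocyte miRNA miR-122-5p reached 83721 ± 3531 normalised CPM in Huh-7 (SD, n = 2), against at most 32.8 ± 9.12 in the other lines. The melanocyte lineage miRNA miR-211-5p had 0 reads in both MV-3 libraries. The epithelial miRNA miR-200b-3p was at 1853 ± 8.51 in Huh-7, 1354 ± 69.6 in A-549, 17.0 ± 6.24 in MV-3 and 7.85 ± 1.66 in ES-2, whereas miR-141-3p, also epithelial, had at most 11 reads in any library and 0 and 1 in A-549. Of the blood cell miRNAs, miR-142-3p was found at 357 ± 27.5 in ES-2 and with 0 reads elsewhere, while miR-223-3p and miR-451a had at most 4 reads in any library and 0 to 1 in ES-2.

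miR-34a was found in Huh-7 and A-549 cells and had few reads in ES-2 and none in MV-3 cells. In bulk RNA, fewer cells with a miRNA and less of it per cell cannot be told apart. For miR-34a-5p, the predominant strand, normalised CPM was 174 and 152 in Huh-7 and 435 and 452 in A-549 (replicates 1 and 2). In ES-2 it was 4.17 and 0.514, from 6 reads and 1 read, and both MV-3 libraries had 0 reads, which at their depth allows up to 2.22 and 1.65 normalised CPM. The libraries of the high lines did not overlap with those of the low lines, but high and low were assigned from these same values. By rank, miR-34a-5p was number 133 of 1012 miRNAs with a read in Huh-7 and number 94 of 804 in A-549.

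To determine how far the lines differed, the log2(normalised CPM + 1) values of 528 miRNAs were compared with limma in a model of all 8 libraries, and a miRNA was called at a Benjamini-Hochberg adjusted p below 0.01. Of the 6 members, 5 passed the filter on low reads, the exception being miR-34a-3p. All 5 were called among the 4 lines, compared with 68.2% of all miRNAs tested, but the call of miR-34b-5p (adjusted p = 0.00677) was lost without either replicate of MV-3, Huh-7 or A-549 (adjusted p from 0.0212 to 0.0601), with no filter (0.0151) and with a pseudocount of 0.1 (0.0228). Its adjusted p ranged from 0.00128 to 0.0601 over 17 alternatives. edgeR on recovered reads called 371 of the 528 miRNAs (70.3%) and also these 5. Such a filter keeps rare miRNAs through the line in which they are high, so this count is no evidence about the family. miR-34a-5p exceeded ES-2 by 5.87 on the log2 scale in Huh-7 (SE 0.57, adjusted p = 0.000157 in limma) and by 7.31 in A-549 (SE 0.57, adjusted p = 7.08e-05). Against MV-3 it was 7.36 in Huh-7 and 8.80 in A-549. On the scale of mean normalised CPM, this was 69.8-fold and 190-fold above ES-2. Compared with MV-3 the level was at least 84.5-fold and 229-fold higher, taking 3 reads in each MV-3 library as the floor. ES-2 exceeded MV-3 by 1.48 on the log2 scale with no call (adjusted p = 0.0956). Without ES-2 replicate 2 the difference was called (adjusted p = 0.00264, range over the alternatives 0.00264 to 0.255).

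The difference in miR-34a-5p between Huh-7 and A-549 depended on the scaling. Normalised CPM was 163 ± 15.5 in Huh-7 and 444 ± 12.1 in A-549 (SD, n = 2), a ratio of 2.72 and a log2 difference of 1.44 (SE 0.57), without a call in limma (adjusted p = 0.0673). The SE is common to all lines and holds the spread of the 2 ES-2 libraries at 6 reads and 1 read. Without ES-2 replicate 1 or replicate 2, the adjusted p was 0.00299 and 0.00252. edgeR on recovered reads also called the difference, with an adjusted p of 0.00370, as did DESeq2 (7.76e-10). Over all 17 alternatives the adjusted p ranged from 7.76e-10 to 0.988. By library CPM, however, the level was 272 ± 17.8 in Huh-7 and 267 ± 2.52 in A-549, which is -0.03 on the log2 scale (adjusted p = 0.988 in limma). Dropping the TMM factors shifted the median of all miRNAs in this pair by -1.28.

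The passenger strand miR-34a-3p was rare in all libraries. Its reads numbered 6 and 7 in A-549, 25 and 0 in Huh-7, 5 and 0 in ES-2 and 0 and 0 in MV-3. The Huh-7 libraries thus disagreed beyond counting error, with p = 3.71e-07 in an exact binomial test of the 2 libraries (3.52e-06 adjusted over 11 such tests). Of 1378 cases of a miRNA with at least 20 reads in a library of a line, 8 had no read in the other replicate, and 5 of these were in Huh-7.

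The strands of miR-34b and miR-34c were found in MV-3 and A-549 cells, whereas ES-2 and Huh-7 cells had few or no reads. miR-34c-5p was the most abundant of the 4, with 194 and 165 normalised CPM in MV-3 and 239 and 155 in A-549. It was at 1.39 and 3.59 in ES-2, from 2 and 7 reads, and at 2.25 and 0 in Huh-7, from 8 and 0 reads. Again the libraries of the high and low lines, which were grouped by these same values, did not overlap. It ranked 118 of 839 miRNAs with a read in MV-3 and 141 of 804 in A-549.

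For miR-34b-3p, the strand kept from the neighboring hairpin, normalised CPM was 128 and 85.1 in MV-3 and 97.3 and 71.1 in A-549. ES-2 had 3 and 0 reads of it and Huh-7 had none. The other strands were rarer. miR-34b-5p was at 19.2 and 17.6 in MV-3, 12.9 and 4.91 in A-549, 0 and 3.59 in ES-2 and 0 in both Huh-7 libraries. miR-34c-3p was at 11.8 and 12.1 in MV-3 and at 6.77 and 13.9 in A-549, with 0 reads in all 4 libraries of ES-2 and Huh-7.

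**Figure D1:**
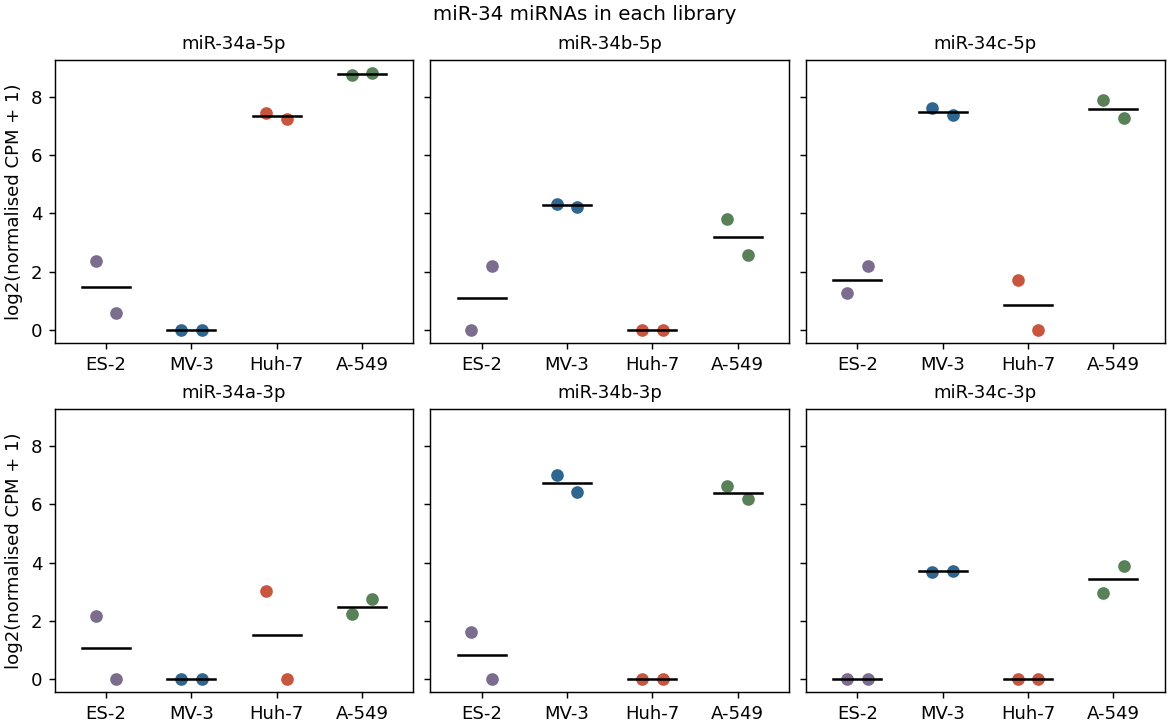
Level of each miR-34 miRNA in the 8 libraries, as log2(normalised CPM + 1) on the vertical axis, with 1 point per library and a bar at the mean of the 2 libraries of a line. miR-34a-5p is high in Huh-7 and A-549, while the miR-34b and miR-34c strands are high in MV-3 and A-549, and ES-2 is low throughout.

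Relative to ES-2, miR-34c-5p differed on the log2 scale by 5.76 in MV-3 (SE 0.64, adjusted p = 0.000637 in limma) and by 5.87 in A-549 (SE 0.64, adjusted p = 0.000352). With a pseudocount of 0.1 in place of 1, both calls were lost, at adjusted p = 0.0219 and 0.0148, the highest values over the alternatives (lowest 7.87e-19 and 1.16e-20). The log2 fold change of Huh-7 against MV-3 was -6.64 (adjusted p = 0.000162), and A-549 was higher than Huh-7 by 6.74 (adjusted p = 0.000146). As ratios of mean normalised CPM, MV-3 was 72.1-fold and A-549 78.9-fold above ES-2, and 159-fold and 175-fold above Huh-7, with denominators of 9 and 8 reads.

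miR-34b-3p was called in the same 4 comparisons, with log2 fold changes of 5.91 for MV-3 and 5.58 for A-549 against ES-2 (SE 0.60). Its level in MV-3 was at least 114-fold and in A-549 at least 90.1-fold that of Huh-7. Against the 3 reads in ES-2, the ratio was 117 for MV-3 (95% counting interval 39.6 to 569) and 97.2 for A-549 (32.9 to 474). miR-34c-3p was called in these 4 comparisons as well, with log2 fold changes between 3.43 and 3.70 in size and bounds from at least 5.71-fold for A-549 against ES-2 to at least 12.8-fold for MV-3 against Huh-7.

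For miR-34b-5p, the call rested on fewer reads. It was called between Huh-7 and MV-3 (-4.28 on the log2 scale, adjusted p = 0.00306 in limma, range over the alternatives 0.000117 to 0.0398), but not without either MV-3 or either Huh-7 replicate, nor without A-549 replicate 2 (adjusted p from 0.0103 to 0.0398), nor with a pseudocount of 0.1 (0.0106). It was not called for MV-3 against ES-2 (3.18, adjusted p = 0.0194), where library size alone gave 3.48 and a call (adjusted p = 0.00948, range over the alternatives 0.00682 to 0.103). A-549 against ES-2 was not called either (2.08, adjusted p = 0.0601, range 0.0113 to 0.291), and the lower A-549 library, at 4.91, was near the higher ES-2 library, at 3.59. For A-549 against Huh-7 it was just short of a call (3.18, adjusted p = 0.0106), and edgeR on recovered reads called it (adjusted p = 0.00510, range 0.000682 to 0.0821).

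No strand of miR-34b or miR-34c was called between MV-3 and A-549. The log2 fold change of A-549 against MV-3 was 0.10 for miR-34c-5p (SE 0.64), -0.32 for miR-34b-3p (SE 0.60), -1.10 for miR-34b-5p (SE 0.76) and -0.27 for miR-34c-3p (SE 0.35). Under library size only these values were -0.85, -1.26, -1.93 and -1.12, and none was called either, with a shift of the median of all miRNAs by -0.61. A difference of the size of these errors was not detectable with 2 libraries per line.

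In the 6 pairs of lines, the number of members called varied with the pair. Of the 5 tested, 1 was called for Huh-7 against ES-2, where 49.2% of all miRNAs were called and 27.7% were higher. There were 3 for MV-3 against ES-2, all higher, where 25.8% of all were called and 11.6% were higher. A-549 against ES-2 gave 4, all higher, beside 41.3% of all called and 23.7% higher. Huh-7 against MV-3 gave 5 beside 47% of all, with miR-34a-5p higher (26.9% of all were) and the 4 others lower (20.1% of all were). A-549 against MV-3 gave 1, which was higher, beside 39.6% of all called and 24.1% higher. A-549 against Huh-7 gave 3, all higher, beside 52.3% of all called and 28.6% higher. In this last pair edgeR called 5 (53.4% of all miRNAs) and DESeq2 called 5 (49.2% of all). Comparisons that share a line share its libraries and are not independent. Nor are the 4 strands of miR-34b and miR-34c, which are made from a common primary transcript. Members rare in some lines passed the filter through the lines in which they are high, so these counts are no evidence about the family.

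**Figure D2:**
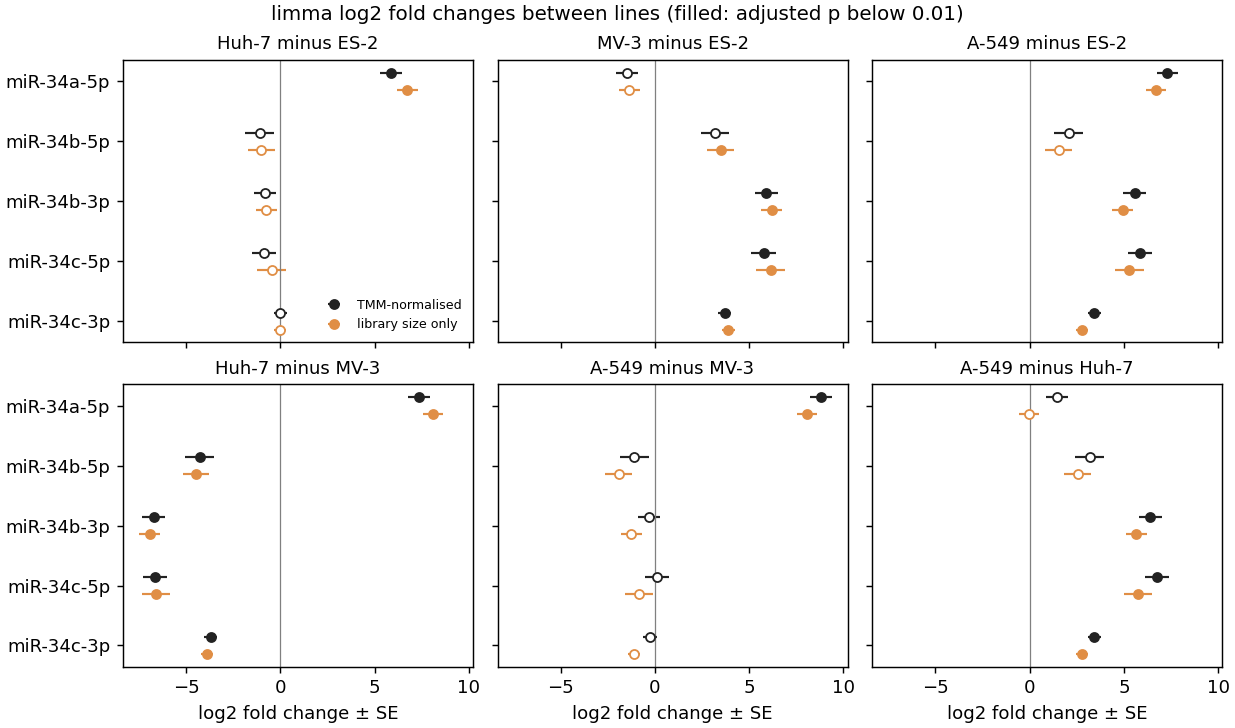
log2 fold changes with their standard errors for the 5 miR-34 miRNAs tested, in 1 panel per pair of lines, with TMM-normalised values in black and library size only in orange, and filled points at an adjusted p below 0.01 in limma. The scaling moves miR-34a-5p in A-549 minus Huh-7 from 1.44 to -0.03, while every difference called by limma with TMM here keeps its direction.

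Next, the miR-34a locus on chromosome 1 was compared with the miR-34b/c cluster on chromosome 11. Summed over its strands, miR-34a reached 448 ± 13.5 normalised CPM in A-549 (SD, n = 2), 167 ± 20.5 in Huh-7 and 4.07 ± 5.04 in ES-2, with 0 reads in MV-3. The cluster reached 316 ± 51.8 in MV-3, 300 ± 78.7 in A-549, 5.33 ± 2.63 in ES-2 and 1.13 ± 1.59 in Huh-7. By library CPM, miR-34a was 269 ± 3.34 in A-549 and 278 ± 26.0 in Huh-7, and the cluster was 368 ± 54.6 in MV-3 and 181 ± 50.5 in A-549. Each of the 4 lines therefore had its own combination: A-549 had both loci, Huh-7 had miR-34a, MV-3 had the cluster, and ES-2 had 16 and 15 reads of the whole family.

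The share of miR-34 reads that came from miR-34a does not depend on the scaling. It was 98.8% in Huh-7 replicate 1 (95% Wilson interval 97.6 to 99.4) and 100% in replicate 2 (99.1 to 100). In MV-3 it was 0% in both libraries, with upper limits of 0.799% and 0.748%. A-549 lay between these lines at 55.2% (52.5 to 57.9) and 65.2% (61.9 to 68.3), so that its libraries differed by more than counting error. In ES-2 it was 68.8% of 16 reads and 6.67% of 15 reads, which leaves the share in this line undetermined. These intervals cover counting error within a library only. They take each read as an independent molecule, and the sources do not say whether reads were collapsed to molecules.

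As a test of this, the log2 ratio of miR-34a-5p to miR-34c-5p was taken in each library, with 0.5 reads added to both. It was -9.14 ± 0.14 in MV-3, -0.47 ± 2.62 in ES-2, 1.21 ± 0.48 in A-549 (SD, n = 2), and Huh-7 was highest at 6.19 and 9.80. An exact permutation test of the F ratio over the 105 partitions of the libraries into 4 pairs gave p = 0.0190, and 0.0762 after Benjamini-Hochberg adjustment over the 4 ratios tested, so it did not pass the correction. The MV-3, A-549 and Huh-7 libraries did not overlap in this ratio. ES-2 spread from -2.32 to 1.38, around A-549. The value in Huh-7 rests on 8 and 0 reads of miR-34c-5p and that in MV-3 on 0 reads of miR-34a-5p.

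**Figure D3:**
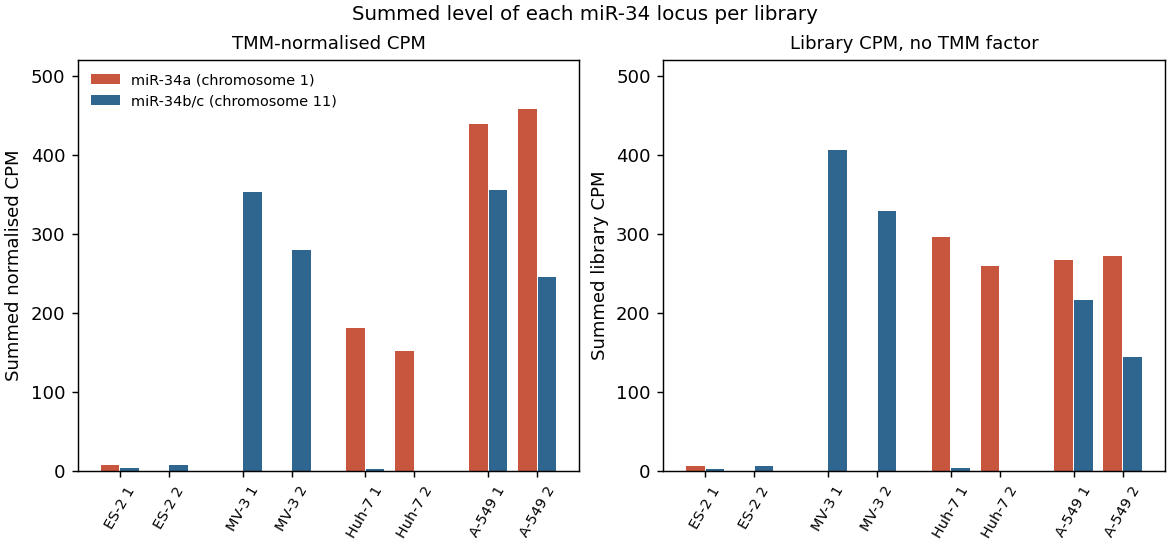
Summed level of miR-34a (both strands, red) and of the miR-34b/c cluster (4 strands, blue) in each of the 8 libraries, as normalised CPM on the left and as library CPM without the TMM factor on the right. miR-34a in A-549 stands above Huh-7 on the left, at 439 and 458 against 181 and 152, but at the same height on the right, at 267 and 272 against 296 and 260.

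The strands kept from each hairpin were then compared. Of the miR-34a reads, 96.1% and 100% were 5p in Huh-7 and 99.2% and 98.8% in A-549. Of the miR-34c reads, 94.2% and 93.2% were 5p in MV-3 and 97.2% and 91.7% in A-549. miR-34b went the other way. Its 5p strand made up 13.1% and 17.1% of reads in MV-3 and 11.7% and 6.45% in A-549, with Wilson intervals between 2.99% and 23.2%. In every library with at least 20 reads of a hairpin, the 5p strand prevailed for miR-34a and miR-34c and the 3p strand for miR-34b. Within a hairpin, no difference in strand use between lines passed the test. The exact permutation tests of the log2 ratio of 5p to 3p gave p = 0.0667 for miR-34a, 0.352 for miR-34b and 0.752 for miR-34c (0.133, 0.470 and 0.752 adjusted), where the smallest possible value is 0.00952. Libraries without reads of a hairpin enter these tests at a ratio of 0 by the added reads, which limits what they can show.

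**Figure D4:**
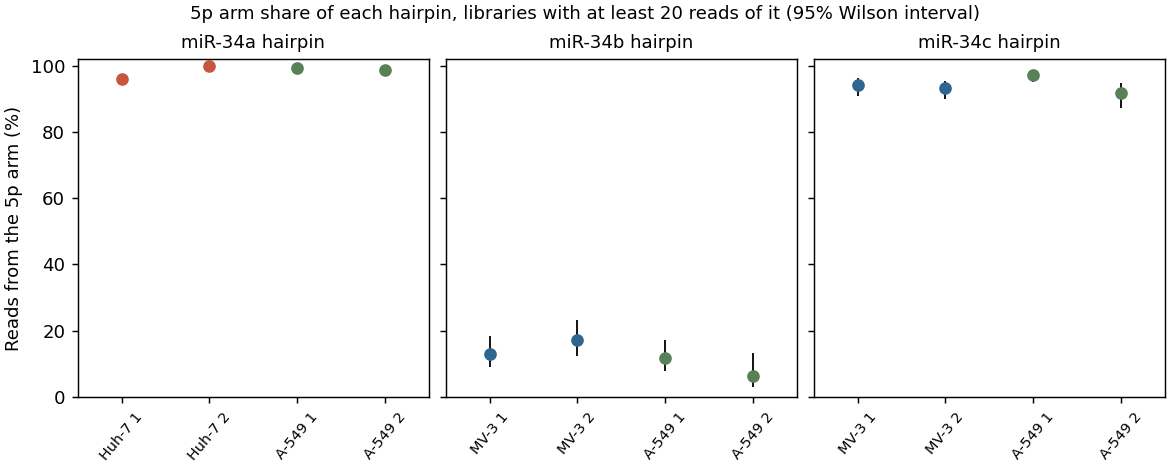
Share of reads from the 5p strand, in percent of all reads of a hairpin, for the libraries with at least 20 reads of it, with 95% Wilson intervals for counting error. The miR-34a and miR-34c hairpins lie between 91.7% and 100%, and the miR-34b hairpin between 6.45% and 17.1%.

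Within the cluster, miR-34c had more reads than miR-34b. It made up 58.3% and 63.3% of the cluster's reads in MV-3 and 69.0% and 68.9% in A-549. The 4 Wilson intervals ran from 53.8% to 73.9%, and that of MV-3 replicate 1 did not overlap with those of the A-549 libraries. With 2 libraries per line, this difference was not tested. These shares, like those of the strands, are of reads, which were not corrected for how well each sequence is captured.

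Replicates of a line agreed to a varying degree. Over 11 cases of a member with at least 20 reads in a line, 3 differed between the replicates beyond counting error at an adjusted exact binomial p below 0.05. Beside miR-34a-3p in Huh-7, these were miR-34c-5p in A-549, with 388 and 189 reads and a 1.55-fold difference, and miR-34b-3p in MV-3, with 173 and 155 reads and a 1.51-fold difference in normalised CPM. miR-34a-5p differed 1.04-fold between the A-549 libraries and 1.14-fold between the Huh-7 libraries. The exact binomial tests also take each read as an independent molecule.

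The miR-449 relatives of the family were rare. miR-449a and miR-449b-5p, known from ciliated cells, share the seed of miR-34a-5p, while miR-449c-5p shares that of miR-34b-5p. They are shown with their seeds in capitals for comparison with the 5p strands of the miR-34 family:
miR-449a: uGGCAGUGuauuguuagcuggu
miR-449b-5p: aGGCAGUGuauuguuagcuggc
miR-449c-5p: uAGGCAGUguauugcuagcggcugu

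Among the 2370 human mature sequences matched here, which hold 5 of the 6 members, the seed GGCAGUG was found in 3 and AGGCAGU in 3, which is 0.127% each. The member left out of these counts is miR-34c-5p. miR-449a had 1 read in all, miR-449b-5p had 0 reads in the 8 libraries, and miR-449c-5p had at most 3 reads in any library. The longest run shared by miR-34a-5p and miR-449a was 9 bases.

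To place the family among other p53-linked miRNAs, a list of 13 was compared that p53 is known to induce or to help mature. Of these, 10 passed the filter. The miR-192 group, which restrains the cell cycle and is known from liver and gut, was high in the lines that had miR-34a. miR-192-5p was at 5030 ± 501 normalised CPM in Huh-7 and 4540 ± 260 in A-549, against 76.1 ± 0.604 in ES-2 and 77.8 ± 14.6 in MV-3. miR-194-5p, made from the same transcripts, was at 4828 ± 479 and 3148 ± 75.4 in Huh-7 and A-549 and at 67.0 ± 8.33 and 64.1 ± 1.69 in ES-2 and MV-3. For miR-215-5p, a paralog of miR-192, the level was 340 ± 56.6 in Huh-7, 43.6 ± 7.71 in A-549, 1.28 ± 1.82 in ES-2 and 2.66 ± 1.67 in MV-3. All 3 were called in Huh-7 and A-549 against ES-2 and against MV-3. By library CPM, the level of miR-192-5p was 8383 ± 587 in Huh-7 and 2730 ± 205 in A-549, so that the ratio of these lines depends on the scaling.

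The other members of the list varied in their order of lines. miR-143-3p, a miRNA of mesenchymal cells, was at 17.1 ± 11.4 in ES-2, 251 ± 9.67 in Huh-7, 1038 ± 27.6 in MV-3 and 2561 ± 78.6 in A-549. miR-145-5p, from the same cluster, was not read in ES-2 and lay between 11.3 ± 6.54 and 25.5 ± 9.06 elsewhere. miR-22-3p was called higher than in ES-2 in all 3 other lines, by log2 fold changes of 0.36 to 1.03. It was called higher in A-549 than in Huh-7, at 1354 ± 18.9 and 853 ± 10.8 normalised CPM, but its library CPM was lower in A-549, at 814 ± 3.06 and 1423 ± 24.3. miR-15a-5p, which targets BCL2, was highest in Huh-7 at 268 ± 33.2, with 112 ± 21.8 to 149 ± 15.2 in the other lines. Its cluster partner miR-16-5p ranged from 2642 ± 97.1 in A-549 to 4530 ± 267 in Huh-7. miR-200c-3p, an epithelial miRNA, was called higher in Huh-7 and A-549 than in MV-3, at 120 ± 12.6, 79.9 ± 33.8 and 18.6 ± 8.56, with 44.5 ± 1.89 in ES-2. Its libraries in Huh-7 and A-549 were above those in ES-2 and MV-3, but by library CPM the lower A-549 library, at 34.1, was below those of ES-2, at 39.7 and 36.6. For miR-107, which was not called in any pair, the level was 112 ± 3.90 to 165 ± 0.257. miR-141-3p, miR-605-5p and miR-1246 did not pass the filter, with at most 12 reads in a library.

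By count, 7 of the 10 were called for Huh-7 against ES-2 (7 higher), 3 for MV-3 against ES-2 (3 higher) and 7 for A-549 against ES-2 (6 higher). There were 8 for Huh-7 against MV-3 (6 higher), 4 for A-549 against MV-3 (4 higher) and 6 for A-549 against Huh-7 (2 higher). They are to be read against the percentages of all miRNAs given above, and against 17.6% lower for A-549 against ES-2 and 23.7% lower for A-549 against Huh-7. The median log2 fold change of the 10 was 2.62, -0.02, 2.79, 0.88, 1.24 and -0.52 in these pairs, beside 0.34, 0.00, 0.00, 0.19, 0.08 and -0.09 for all 528 miRNAs. The directions moved with the scaling. Under library size only, A-549 against MV-3 gave 3 higher and 4 lower (15.5% and 30.1% of all miRNAs), and Huh-7 against MV-3 gave 7 higher and 0 lower (35.4% and 17.4% of all). A-549 against Huh-7 went from 2 higher and 4 lower to 1 higher and 8 lower (21% and 46.2% of all), with a median of -1.99 in place of -0.52. Huh-7 against ES-2 went from 7 to 10 of 10, all higher (43% of all). The 10 miRNAs are not independent. miR-192-5p and miR-194-5p are made from the same transcripts, and miR-143-3p and miR-145-5p, like miR-15a-5p and miR-16-5p, share a cluster. miR-145-5p and miR-215-5p, with few or no reads in ES-2, passed the filter through lines in which they are higher. The list was also chosen with earlier results known, so these counts and medians are no evidence about p53-linked miRNAs as a group.

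**Figure D5:**
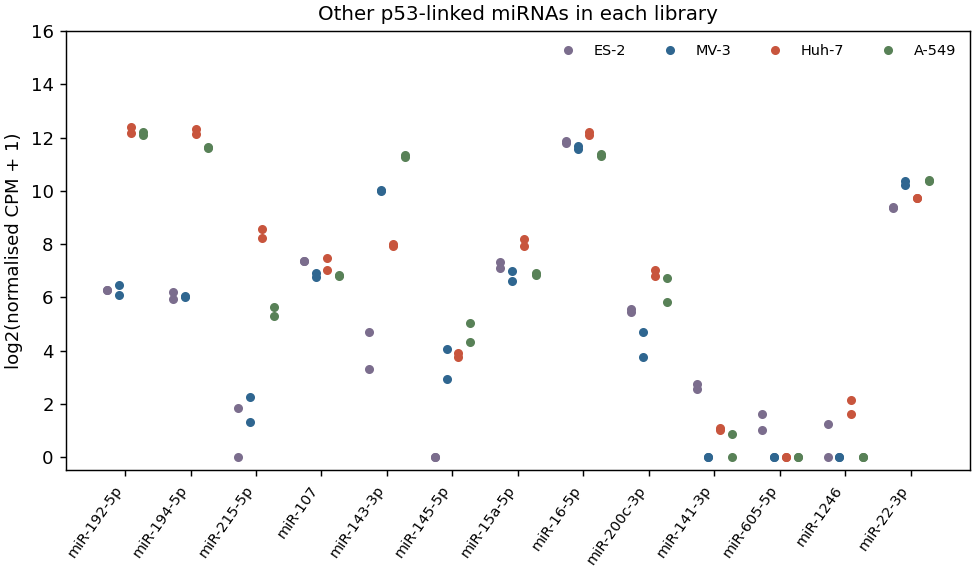
Level of the 13 other p53-linked miRNAs as log2(normalised CPM + 1), with 1 point per library and the 4 lines in color. miR-192-5p, miR-194-5p and miR-215-5p are high in Huh-7 and A-549, while miR-143-3p is highest in A-549 and MV-3 and miR-107 averages between 112 and 165 normalised CPM in the 4 lines.

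Finally, the miRNAs whose levels followed those of the family most closely were listed by Pearson's r of log2(normalised CPM + 1) over the 8 libraries, among 523 other miRNAs. These coefficients rest on 4 lines with libraries and TMM factors in common and are given without a test, with levels in normalised CPM. For miR-34a-5p they were miR-335-5p (r = 0.986), miR-1247-5p (0.982) and miR-181b-5p (0.971). miR-335-5p was at 217 and 206 normalised CPM in Huh-7, 243 and 292 in A-549, 3.47 and 2.57 in ES-2 and 1.48 and 0 in MV-3. miR-1247-5p had 0 reads in all 4 libraries of ES-2 and MV-3. miR-181b-5p varied far less, at 1916 ± 34.6 in Huh-7, 2314 ± 53.3 in A-549, 1230 ± 13.0 in ES-2 and 1058 ± 193 in MV-3. By library CPM it was 3196 ± 37.2 in Huh-7 and 1054 ± 26.5 in ES-2. A-549, at 1431 and 1351, then overlapped with MV-3, at 1061 and 1405. For miR-34c-5p they were miR-2682-5p (0.964), miR-24-3p (0.926) and miR-149-5p (0.924). miR-24-3p was at 17914 ± 855 in MV-3, 9879 ± 554 in A-549, 4776 ± 137 in ES-2 and 2743 ± 118 in Huh-7. By library CPM it was 20851 ± 1317 in MV-3, 5940 ± 438 in A-549, 4575 ± 60.2 in Huh-7 and 4093 ± 57.8 in ES-2. miR-149-5p was at 99.5 ± 0.484 in MV-3 and 166 ± 19.1 in A-549, against 14.2 ± 11.3 in ES-2 and 10.7 and 11.3 in Huh-7.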

How the data were processed

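Small RNA libraries were made by the authors from total RNA. Per the labels and the methods of the study, reads were trimmed with Cutadapt 1.14, aligned to hg38 (GRCh38) with Bowtie2 2.3.2 and counted on miRBase mature miRNAs with featureCounts 1.5.3. The authors deposited signal values, CPM divided by the TMM factor of edgeR 3.18.1. How multiply aligned reads, strand and the random adapter bases of the kit were handled is not given in the sources used here. Whole reads were recovered from the step of 1 read per library (100% of values whole, tolerance 0.001), and TMM factors recomputed from them matched to rounding error.

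Entries of a name were summed. limma 3.58.1 in R 4.3.3 was fitted to log2(normalised CPM + 1), its prior variance following the mean level, with 1 term per line and 4 residual degrees of freedom, after filterByExpr on recovered reads. Such fold changes understate differences of rare miRNAs. edgeR 4.0.16 (quasi-likelihood) and DESeq2 1.42.0 on recovered reads were alternatives. Fold bounds take 3 reads per library for a line at 0 reads, and ratios against 1 to 3 reads carry an exact counting interval. Positions came from GENCODE release 44 and sequences from RefSeq. The fit was also run on simulated reads, with a fixed spread and changes in Huh-7 only. That setting did not imitate miRNAs with few reads in some lines and many in others, and no result here rests on it. Named miRNAs were the members, the miR-449 miRNAs with a related seed, the 13 p53-linked miRNAs, cell markers and the 3 most similar miRNAs per locus. Members and lists were chosen with earlier results of these data known.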

Additional observations from a re-analysis of the deposited data

How the results depend on the processing

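The number of miR-34 miRNAs called moved by more than 1.5 times in 2 pairs. For A-549 against Huh-7 it was 5 with edgeR on recovered reads and 5 with DESeq2, against 3 with limma. Leaving out single libraries gave 3 to 5 in that pair, with 5 without either ES-2 replicate. For MV-3 against ES-2 the count rose without ES-2 replicate 2. It was 3 in the main fit, 2 with a pseudocount of 0.1 and 4 under library size only. In the p53-linked list, A-549 against MV-3 had 7 calls under library size only and 4 with TMM. Leaving out single libraries there gave a range of 2 to 4, with 2 without MV-3 replicate 1 or either replicate of Huh-7 or A-549. When single libraries were left out, the lowest and highest counts were 4 and 7 in Huh-7 against ES-2 (4 without either Huh-7 replicate), 4 and 8 in Huh-7 against MV-3 (4 without Huh-7 replicate 1), and 2 and 6 in A-549 against Huh-7 (2 without Huh-7 replicate 1, 3 without either A-549 replicate). Under library size only these 3 pairs had 10, 7 and 9 calls.

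Among the miR-34 miRNAs, reversed directions were found only for differences that were not called in the main limma fit. One of these, miR-34a-5p in A-549 against Huh-7, was called by edgeR with the TMM factors (adjusted p = 0.0037). In the p53-linked list, miR-22-3p was called higher in A-549 than in Huh-7 and was lower by library CPM. miR-34a-5p was at -0.03 in A-549 against Huh-7 under library size only. In A-549 against MV-3, miR-34c-5p was at -0.85 under library size only and ranged from -0.21 (without A-549 replicate 1) to 0.41 when single libraries were left out, with -0.01 without MV-3 replicate 2. miR-34c-3p ranged from -0.74 to 0.20 in the same pair, the latter without A-549 replicate 1. The cause was not tested. The log2 ratio of miR-34a-5p to miR-34c-5p in MV-3 was -8.14 with 1 read added, which follows from its 0 reads of miR-34a-5p.

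The correlation of replicate deviations between lines ran from -0.05 to 0.232, the highest being that of ES-2 and Huh-7. Whether replicate numbers pair the libraries was not tested. A replicate block kept the number of members called in each of the 6 pairs (1, 3, 4, 5, 1 and 3) and gave 4 in place of 5 among the 4 lines, where miR-34b-5p was lost (adjusted p = 0.0129 in limma). Levels below about 3 reads per library could not be measured at this depth.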

Other observations

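The miRNA with the level pattern most like that of miR-34c-5p, miR-2682-5p, also holds the seed AGGCAGU of miR-34b-5p. Its sequence is shown with the seed in capitals:
miR-2682-5p: cAGGCAGUgacuguucagacguc

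It shares 8 bases in a row with miR-34b-5p, AGGCAGUG, and 7 with miR-34a-5p. The hairpin lies on another chromosome than the cluster, on chromosome 1 at 98045242 to 98045351, minus strand, 718 bases from MIR137 and within the bounds of the host transcript MIR137HG. Normalised CPM of miR-2682-5p was 16.3 and 29.1 in MV-3, 27.1 and 14.7 in A-549, 4.17 and 5.65 in ES-2 and 5.63 and 3.07 in Huh-7, from 6 to 53 reads per library. Its libraries in MV-3 and A-549 were all above those in ES-2 and Huh-7. By library CPM the A-549 and Huh-7 libraries overlapped, at 12.6 ± 5.48 and 7.22 ± 2.80 (SD, n = 2). The other strand, miR-2682-3p, had 1 and 26 reads in MV-3, 9 and 0 in Huh-7, 7 and 4 in A-549 and none in ES-2.

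The neighboring miR-137, chosen after these values were seen, has an unrelated seed. It was at 51.1 and 73.0 in MV-3, 38.8 and 44.2 in A-549, 0 and 4.11 in ES-2 and 11.8 and 6.49 in Huh-7, and its Pearson's r with miR-34c-5p over the 8 libraries was 0.844. By library CPM miR-137 was 72.3 ± 19.1 in MV-3, 24.9 ± 1.85 in A-549, 15.2 ± 5.84 in Huh-7 and 1.74 ± 2.46 in ES-2 (SD, n = 2). With 4 lines, no test of this relation was made.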
